A study of Mus musculus with 8 samples.

Results

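Cultured mouse liver endothelial cells labelled dKO were compared with cells labelled WT in the absence of added cytokines. The comparison takes the 4 libraries whose treatment label is Control, 2 WT and 2 dKO, out of 8 libraries in the study, and covers 15698 genes that passed a filter on low counts, of 52636 in the deposited table. The other 4 libraries are the same genotypes given IL1B and TNFA for 16 hours, and in the fit they add to the estimate of the spread between libraries and to the filter on low counts. They are compared with the resting libraries where this is said. Cells came from the liver of mice with the stated genotype, and dKO is an abbreviation the labels leave unexpanded. The study's text speaks of deletion of Erg, of Fli1 or of both, induced with 4-OHT (the active metabolite of tamoxifen), applied for 48 hours, and 7 days of further culture. The labels place 4-OHT in the culture medium in one passage and in mice in another, give no promoter or cell type for the recombinase, and do not say whether WT cells received 4-OHT. Before polyadenylated RNA was sequenced, living cells were sorted for the surface proteins CD31 and VE-cadherin and against CD45, so Pecam1 and Cdh5, which encode the proteins of the gate, describe the sort as well as the cells.

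ERG and FLI1 are closely related transcription factors of the ETS family, whose members bind DNA at a GGAA core. Both are abundant in the endothelium, the cell layer that lines blood vessels, where they are known for activating genes of cell junctions, surface receptors and growth factor signalling and for holding mesenchymal genes (genes of fibroblasts and smooth muscle) at low levels. In the liver, the sinusoids are lined by a specialised endothelium with scavenger receptors and without a continuous basement membrane.

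The total counts of the 4 libraries ran from 23009062 to 26944030. Each level is a CPM value, a count scaled to a common library size after TMM adjustment, in the order WT replicate 1, WT replicate 2, dKO replicate 1, dKO replicate 2. The test was the two-sided quasi-likelihood test of edgeR, with p-values adjusted by the Benjamini-Hochberg method over all 15698 genes, and "rose" and "fell" mean an adjusted p under 0.05. Whether the 2 libraries of a group are separate animals or cultures is not stated. Levels of the sex-linked Xist, given below, differed widely within WT and within dKO, so the 2 libraries of a group were not repeats of the same cells. Each p-value reflects variation among the sequenced libraries alone, and its technical and biological shares were not separated. In bulk RNA, fewer cells with a transcript and less of it in each cell cannot be told apart.

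The libraries themselves differed within the dKO group. The median absolute log2 difference between replicates was 0.157 in WT and 0.261 in dKO. Xist, which marks cells with 2 X chromosomes, stood at 0.48 and 633 CPM in WT and 0.849 and 224 CPM in dKO, and the Y-linked Ddx3y at 118 and 0.0337 CPM in WT and 140.1 and 90.6 CPM in dKO. The WT libraries therefore differed in these sex-linked transcripts, and dKO replicate 2 held both of them. The part of sex or of mixed cells in the results below was not tested.

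Erg stood at 196 and 186 CPM in WT, while dKO replicate 1 had 40.1 and replicate 2 had 91.3 CPM. These are 21% and 47.8% of the WT mean. Fli1 stood at 161 and 177 CPM in WT, while dKO replicate 1 had 21.9 and replicate 2 had 62.5 CPM, or 13% and 36.9% of the WT mean. For both genes the groups did not overlap, and dKO replicate 2 kept more than 2 times the level of replicate 1. Neither passed the test (Erg: log2 fold change -1.54 with an SE of 0.53, adjusted p = 0.0864; Fli1: log2 fold change -2.0 with an SE of 0.63, adjusted p = 0.0678). A read count over a whole gene can include exons that a deletion leaves in place, so these levels do not measure how many alleles were deleted. Most values below are therefore given for each dKO library, and the rest as a fold of the group means.

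The genes on either side of the deleted ones were looked at within 1 Mb. Beside Fli1 on chromosome 9, the potassium channel genes Kcnj1 and Kcnj5 had 0 counts in WT. In dKO they had 1.61 and 0.582 CPM and 1.3 and 0.582 CPM, at least 20.4-fold and 17.5-fold higher if 3 counts over the WT group are taken as the floor (adjusted p = 0.021 and 0.0207). Ets1, the ETS gene next to Fli1, stood at 275 and 268 CPM in WT and 62.8 and 172 CPM in dKO and did not pass (adjusted p = 0.135). Beside Erg on chromosome 16, Ets2 fell 1.76-fold (160.4 and 164 against 73.6 and 111 CPM) and Wrb, which encodes a receptor for tail-anchored membrane proteins, fell 1.44-fold (26.7 and 26.9 against 18.4 and 18.8 CPM). The other tested neighbours of Erg did not pass. No call named here was kept in all 4 fits that left out 1 library.

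Across all genes 3617 of 15698 passed, 23% of those tested, with 2101 higher (13.4%) and 1516 lower (9.66%) in dKO. Among the genes that passed, the rises were larger than the falls. Most genes far lower in dKO replicate 1 than in replicate 2, described below, did not pass and are not counted there. The median log2 fold change was 1.48 among the genes that rose and -0.71 among those that fell, and 0.02 over all genes tested. At least 4-fold changes were found for 788 of the genes that rose (37.5%) and 138 of those that fell (9.10%), and at least 16-fold changes for 300 and 21. Among the genes that rose, 171 had a mean under 0.1 CPM in WT, and 25 of those that fell had a mean under 0.1 CPM in dKO. In dKO replicate 1 alone the median log2 ratio to WT was 1.54 for the risen and -0.82 for the fallen genes, and in dKO replicate 2 it was 1.26 and -0.62. Replicate 2 lay between WT and replicate 1 for 1628 of the 2101 and 1226 of the 1516. That is 78.9% of the called genes, near the 73.0% (8020 of 10992) among all genes whose WT and dKO libraries did not overlap.

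The count depended on single libraries. With WT replicate 1 left out it was 527 and with WT replicate 2 left out 685, while it was 1180 for dKO replicate 1 left out and 3675 for dKO replicate 2. In these fits the lone remaining library of a group was assumed to vary like the other groups. With only the 4 libraries compared, 2266 genes passed (15.1% of 14980), 1482 higher (9.89%) and 784 lower (5.23%), of which 1416 and 733 were also called in the fit of 8. Without either dKO replicate 2 library, an alternative added after seeing the data, 5602 passed, 2744 higher and 2858 lower. With DESeq2, 4486 passed (28.6%), 2415 higher (15.4%) and 2071 lower (13.2%). The WT and dKO libraries did not overlap in 10992 genes (70.0% of those tested), with dKO higher in 35.9% and lower in 34.1%, so a lack of overlap alone was common. Of the 2101 higher and 1516 lower genes, 353 and 102 passed in each of the 4 fits that left out a library.

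**Figure D1:**
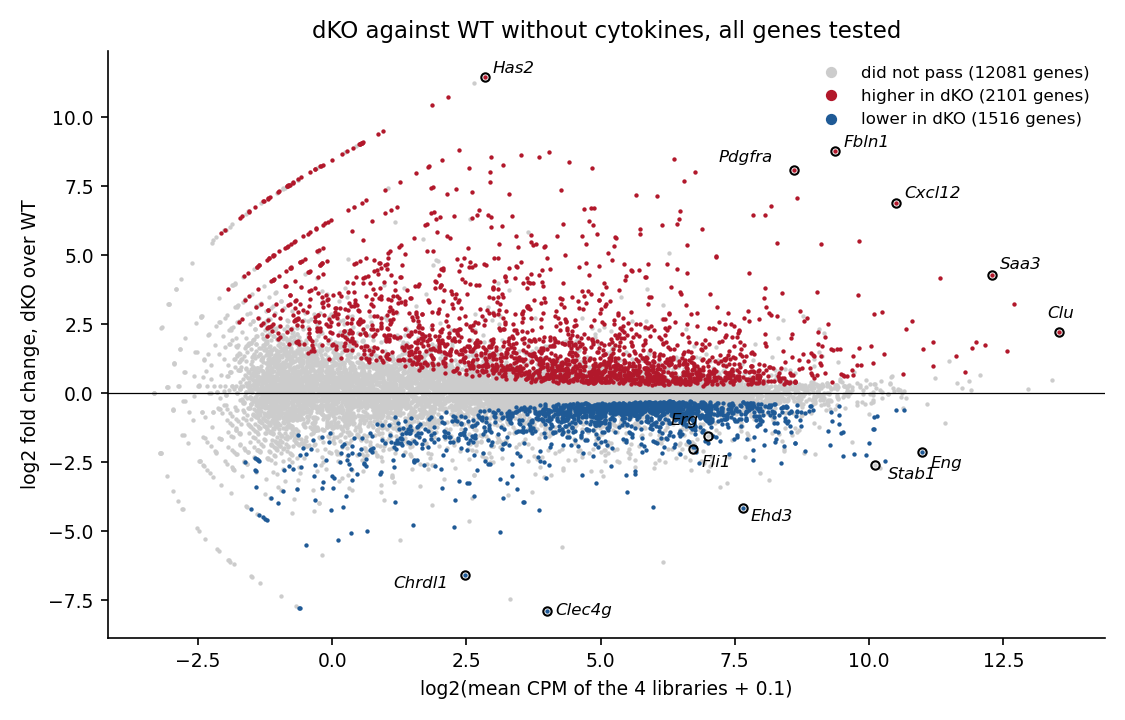
Fitted log2 fold change (vertical, dKO over WT) of each of the 15698 genes tested against log2 of its mean CPM plus 0.1 (horizontal). Red points are the 2101 genes higher in dKO, blue points the 1516 lower and grey points those that did not pass. Rises extend much further from 0 than falls, and Erg, Fli1 and Stab1 lie among the points that did not pass.

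Endothelial surface, junction and signalling genes were led by falls. Of 46 tested, 9 fell (19.6%) and 3 rose (6.52%), with a median log2 fold change of -1.68 (0.02 over all genes). Over all genes tested 9.66% fell and 13.4% rose in the fit of 8 libraries, the shares against which each list count of that fit is to be read. They do not apply to list counts from fits with libraries left out, whose calls over all genes differed widely. Endoglin (Eng), a co-receptor for BMP ligands, stood at 3354 and 3214 CPM in WT and 559 and 960.1 CPM in dKO. Emcn, a sialomucin of capillary endothelium, stood at 867 and 1082 CPM in WT and 223 and 313 CPM in dKO. The junction gene Esam stood at 609 and 616 CPM in WT and 144 and 212 CPM in dKO. In all 3 both dKO libraries lay far below both WT libraries, with folds of 5.88 and 3.42 for Eng, 4.37 and 3.11 for Emcn and 4.27 and 2.88 for Esam in dKO replicate 1 and 2. The tests gave log2 fold change -1.78 with an SE of 0.21, adjusted p = 0.00429 for Esam, with adjusted p = 0.00565 for Eng and 0.0052 for Emcn. Pecam1, which encodes the CD31 of the sort gate, stood at 1607 and 1560.1 CPM in WT and 277 and 636 CPM in dKO (adjusted p = 0.0293), and Cdh5, the VE-cadherin gene, at 1233 and 1307 CPM in WT and 163 and 587 CPM in dKO (adjusted p = 0.0904). Vwf, the gene of von Willebrand factor, fell 2.44-fold (1693 and 1379.7 against 539.9 and 718 CPM), Plvap, of the diaphragms of fenestrae, 2.31-fold (228 and 142 against 69 and 90.7 CPM), and the connexin gene Gja1 2.17-fold (376 and 299.7 against 139 and 173 CPM). The members that rose were the connexin genes Gja4 (3.91 and 3.3 against 51.7 and 28.7 CPM) and Gjc1 (2.99 and 2.46 against 9.83 and 7.61 CPM) and the junction gene Jam3 (9.27 and 9.34 against 20.8 and 17.9 CPM), 36% of whose exon bases another expressed gene covers. Higher and lower counts in this list were 0 and 4 with WT replicate 1 left out, 0 and 5 with WT replicate 2 left out, 1 and 5 with dKO replicate 1 left out and 4 and 16 with dKO replicate 2 left out, and 4 and 34 without either dKO replicate 2 library. The calls of Eng, Emcn and Esam held when each of the 4 libraries was left out in turn, and the other calls named here were lost without at least 1 of them. Vwf, Plvap, Gja1, Gjc1 and Jam3 were chosen after their values were seen.

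The stretch of 100 bases before the annotated start of 2 of these genes, of 3 others that fell in both dKO libraries and of 1 gene that rose is shown for the letters of the ETS core. Sequences are RefSeq promoters on GRCm38.p6, written 5′ to 3′ on the gene's strand, with each GGAA, or TTCC where the core lies on the other strand, in capitals.
Eng (chr2:32646495-32646594, plus strand): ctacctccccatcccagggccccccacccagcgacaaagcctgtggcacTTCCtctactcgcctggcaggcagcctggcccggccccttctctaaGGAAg
Emcn (chr3:137340978-137341077, plus strand): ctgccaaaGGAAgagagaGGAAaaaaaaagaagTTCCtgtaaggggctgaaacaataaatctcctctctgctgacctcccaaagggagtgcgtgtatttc
Tie1 (chr4:118489850-118489949, minus strand): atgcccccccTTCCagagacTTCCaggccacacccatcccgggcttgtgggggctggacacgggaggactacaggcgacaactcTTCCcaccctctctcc
Procr (chr2:155751117-155751216, plus strand): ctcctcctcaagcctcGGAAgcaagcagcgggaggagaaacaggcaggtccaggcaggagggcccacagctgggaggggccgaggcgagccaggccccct
Ehd3 (chr17:73804741-73804840, plus strand): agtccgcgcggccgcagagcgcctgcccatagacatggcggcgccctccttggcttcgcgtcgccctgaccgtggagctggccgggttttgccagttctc
Pdgfra (chr5:75152151-75152250, plus strand): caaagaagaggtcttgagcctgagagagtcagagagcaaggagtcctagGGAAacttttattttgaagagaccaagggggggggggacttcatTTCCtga
In the 250 bases before the start, Tie1 held 7 copies of the core, Emcn and Pdgfra 4 each, and Eng, Procr and Ehd3 3 each. The core is common. Of all 32851 RefSeq promoters of that build, 93.4% held at least 1 copy in those 250 bases, with a median of 3, and the median was also 3 for promoters of genes that fell and of genes that rose. The longer match CCGGAAGT on either strand, which contains the core, was sought in a longer window that also runs past the start. It was in 3.89% of all promoters, 7.53% of those of tested genes, 7.36% of those of genes that fell and 5.24% of those of genes that rose. A match is a description of letters and not a site of binding.

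A second set of genes was far lower in dKO replicate 1 than in replicate 2. They were found by a rule set after the values were seen: among 9874 genes with at least 10 CPM in a group, those with at least a 4-fold gap between the dKO libraries. In 159 genes replicate 1 was the lower, in 28 replicate 2 was, and 34 genes were as far apart between the WT libraries. Of the 159, 156 did not pass the test of dKO against WT, 3 were called lower, and 151 stood at least 4-fold higher in the WT mean than in dKO replicate 1. A wide gap between the dKO libraries enlarges the spread that the test uses, so the rule itself favours genes that do not pass. In dKO replicate 2, 66 of the 159 were within 2-fold of the WT mean, 84 were further below it and 9 further above. The lists of endothelial factors, surface, sinusoidal, growth factor, Notch and adhesion genes held 36 of the 159, and Xist had the widest gap. The surface and junction list held 20 of them among 44 members at that level, against 1.61% of all genes at that level. Shares were smaller in the lists of endothelial factors (3 of 22), sinusoidal genes (4 of 22), Notch genes (4 of 16) and adhesion genes (1 of 12). No test was run on these counts, since the rule used these values.

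Robo4, an endothelial guidance receptor, stood at 143 and 200.1 CPM in WT and 0.67 and 62.9 CPM in dKO. Sox18, a SoxF transcription factor, stood at 144 and 172 CPM in WT and 1.07 and 84.5 CPM in dKO. Mmrn2, a matrix protein beneath endothelium, stood at 112 and 209.6 CPM in WT and 1.83 and 93 CPM in dKO. Replicate 1 had almost none of these transcripts, and replicate 2 was within 3-fold of WT. The VEGF receptor gene Kdr stood at 47.1 and 44.4 CPM in WT and 1.25 and 27.3 CPM in dKO and the nitric oxide synthase gene Nos3 at 20.6 and 22.6 CPM in WT and 0.313 and 13.6 CPM in dKO. Clec14a, an endothelial lectin gene, stood at 602 and 513 CPM in WT and 14.7 and 245 CPM in dKO. Dll4, a Notch ligand of arterial and tip cells, stood at 38.1 and 47.7 CPM in WT and 1.61 and 68.2 CPM in dKO. Cxcr4, the receptor of CXCL12, stood at 13.5 and 20.6 CPM in WT and 0.894 and 38 CPM in dKO. In these last 2 genes replicate 2 lay above both WT libraries. Pdgfb, a ligand for mural cells, stood at 94.9 and 182 CPM in WT and 2.23 and 74 CPM in dKO and Hhex, a homeobox factor gene, at 206 and 255 CPM in WT and 3.26 and 76 CPM in dKO. Flt4, the VEGFC receptor gene, stood at 188 and 152 CPM in WT and 9.03 and 75.2 CPM in dKO. None of these 11 genes passed (adjusted p = 0.256 for Clec14a and 0.917 for Dll4, with a log2 fold change of -2.10 and -0.30). Cd34 (137 and 178 against 7.95 and 56 CPM), Egfl7 (697 and 748 against 46.4 and 274 CPM), Angpt2 (446 and 646 against 24.5 and 244 CPM), Esm1 (60.9 and 77.1 against 0.76 and 68.5 CPM) and Rasip1 (44.3 and 63.8 against 0.626 and 25.2 CPM, with 36% of its exon bases covered by another gene) showed the same order of the dKO libraries. The choice of Robo4, Mmrn2, Nos3, Clec14a, Cxcr4, Pdgfb, Hhex, Flt4, Cd34, Egfl7, Angpt2, Esm1 and Rasip1 was made after their values were seen.

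**Figure D2:**
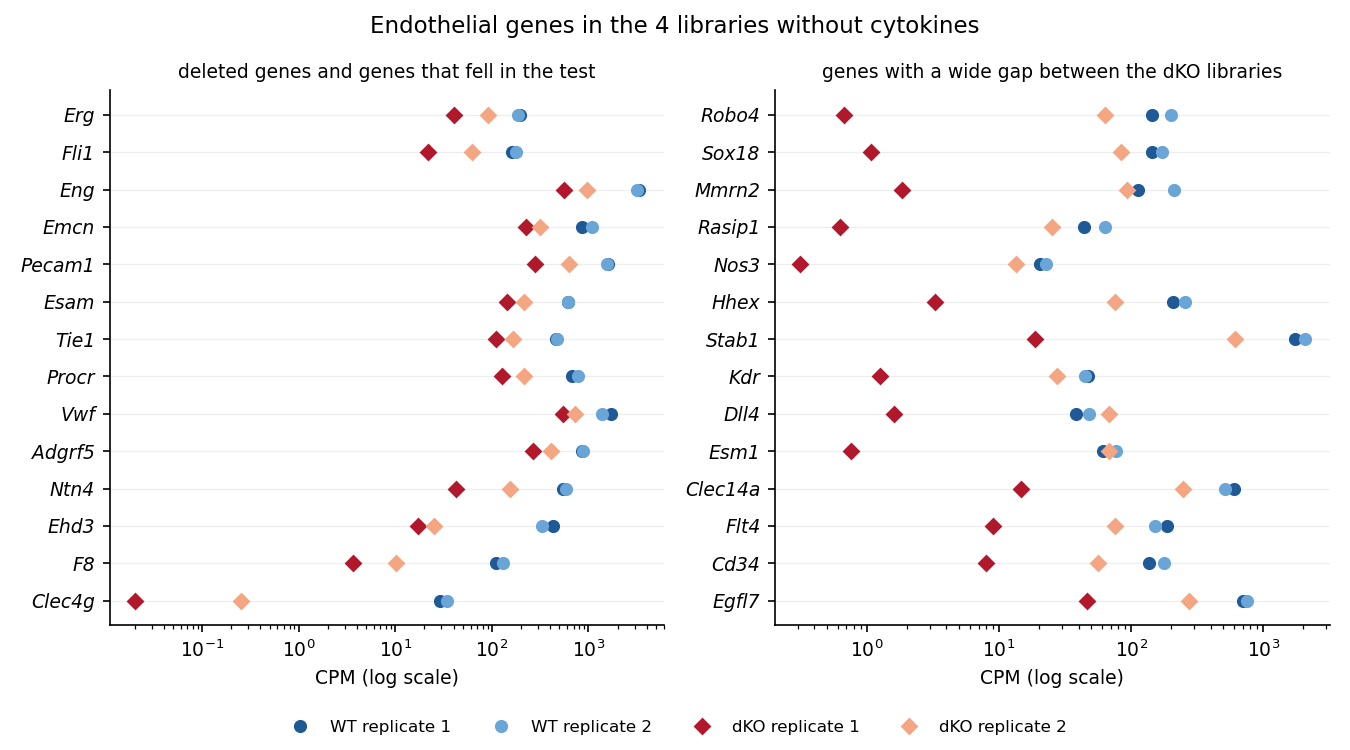
CPM on a log axis of 28 genes in the 4 libraries, WT as blue circles and dKO as diamonds (replicate 1 dark red, replicate 2 light red), with values of 0 drawn at 0.02 CPM. On the left, both dKO libraries lie left of both WT libraries. On the right, dKO replicate 1 lies far left of replicate 2, which lies closer to WT.

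The gap recurred in the libraries given cytokines, which carry the same replicate numbers. Of the 159 genes, 111 were also at least 4-fold lower in dKO replicate 1 than in replicate 2 with cytokines, and of the 28, 17 were the other way. Robo4 stood at 0.409 and 37.1 CPM in dKO with cytokines, Stab1, a scavenger receptor gene of sinusoids, at 24 and 449.7 CPM, and Cxcr4 at 0.681 and 28.5 CPM. The labels do not say whether libraries of one number share a culture. The 28 genes higher in replicate 1 included the embryonic globin gene Hbb-y (0 and 0 against 23.2 and 1.33 CPM), the gene of the growth factor Gas6 (87.5 and 96.1 against 939 and 225 CPM) and Col3a1 and Col6a1, described below. After their values were seen, Robo4, Cxcr4, Hbb-y and Gas6 were added to the genes named by rule.

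**Figure D3:**
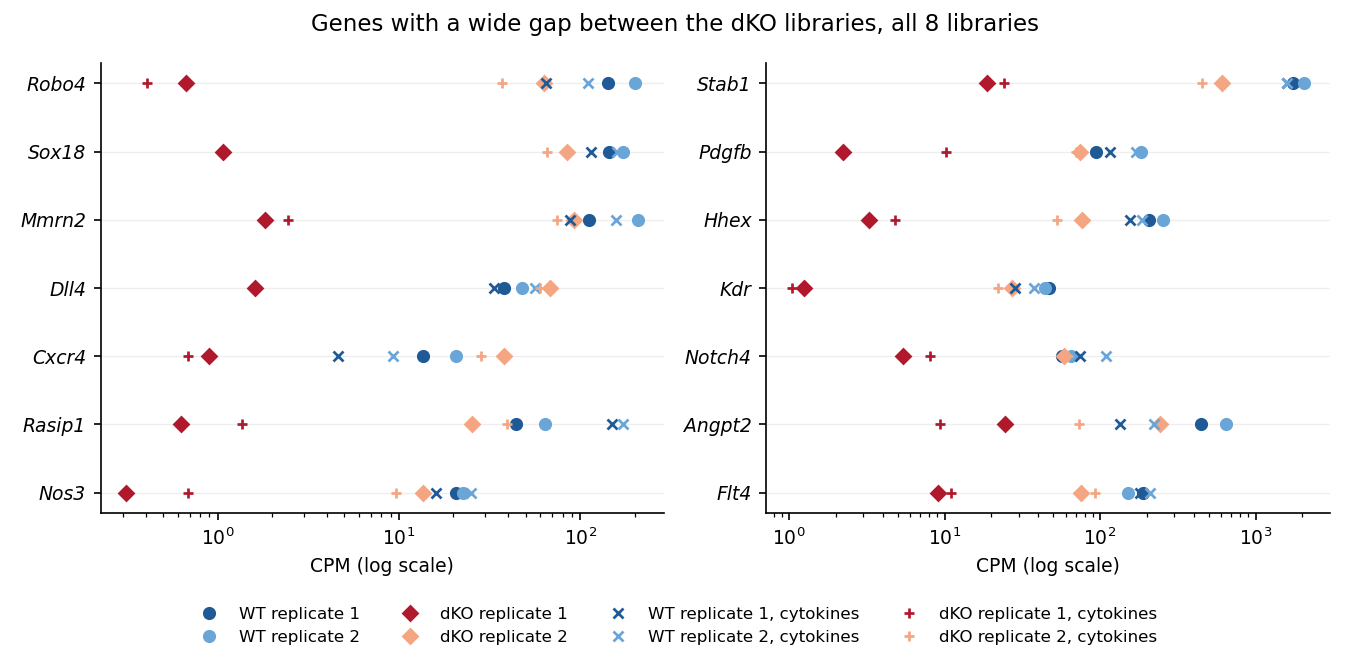
CPM on a log axis of 14 of these genes in all 8 libraries, filled symbols without cytokines and crosses with cytokines, blue for WT and red for dKO. In each gene the dKO replicate 1 libraries lie at the left, with and without cytokines, and the dKO replicate 2 libraries lie closer to the WT ones.

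Among endothelial transcription factors 5 of 26 fell (19.2%) and 2 rose (7.69%, median log2 fold change -0.49). All 5 falls that passed were under 3-fold. Larger drops of the mean that did not pass were those of Hhex (5.82-fold), Prox1 (3.72-fold), Sox18 (3.69-fold) and Bcl6b (3.47-fold). Prox1 stood at 19.8 and 5.16 CPM in WT and 2.5 and 4.2 CPM in dKO, so the WT libraries were themselves far apart. Bcl6b stood at 102 and 114 CPM in WT and 5.54 and 56.8 CPM in dKO. Tfec, of the MiT family, fell 2.86-fold (7.09 and 8.9 against 3.17 and 2.41 CPM). Nfatc1, of valve and sinusoidal endothelium, fell 2.03-fold (43.6 and 38.5 against 17.1 and 23.3 CPM), Foxo1, a brake on endothelial growth, 1.49-fold (134 and 129 against 85.3 and 91.1 CPM), Mef2c 1.48-fold (30.2 and 31.1 against 22.5 and 18.8 CPM) and Foxp1 1.28-fold (141 and 131 against 113 and 98.4 CPM). Tal1, a blood and endothelial bHLH factor, rose 1.59-fold (99.1 and 98.5 against 183 and 132 CPM) and Foxc1 2.07-fold (62.4 and 57.4 against 152 and 96.4 CPM). Gata2 stood at 210.1 and 194 CPM in WT and 158 and 205 CPM in dKO and did not pass (adjusted p = 0.533). In the ETS family without Erg and Fli1, 3 of 17 fell, Ets2, Elf1 (179.6 and 165 against 81.6 and 95.6 CPM) and Erf (83.6 and 82.7 against 43.9 and 61.7 CPM), and Etv5 rose 2.46-fold (24 and 22.5 against 56.7 and 57.5 CPM). Elf1 is an ETS activator of endothelial genes and Erf an ETS repressor. In this list 17.6% fell and 5.88% rose, against 9.66% and 13.4% of all genes. For transcription factors the higher and lower counts were 0 and 0 with WT replicate 1 left out, 0 and 0 with WT replicate 2 left out, 0 and 1 with dKO replicate 1 left out and 2 and 4 with dKO replicate 2 left out, and 3 and 14 without either dKO replicate 2 library. For the ETS family they were 1 and 0 with WT replicate 1 left out, 1 and 1 with WT replicate 2 left out, 1 and 1 with dKO replicate 1 left out and 3 and 5 with dKO replicate 2 left out. They were 4 and 6 without either dKO replicate 2 library. Leaving out each of the 4 libraries in turn kept the calls of Etv5 and lost the other calls named here at least once. Outside the naming rule, Mef2c, Foxp1, Gata2, Hhex, Prox1 and Bcl6b were picked with their values known.

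Genes of liver sinusoidal endothelium fell in 10 of 29 cases (34.5%) and rose in 4 (13.8%, near the share over all genes, median log2 fold change -1.10). Clec4g, a lectin of sinusoidal cells, stood at 29.2 and 33.9 CPM in WT and 0 and 0.249 CPM in dKO. F8, the gene of coagulation factor VIII, stood at 109.6 and 129 CPM in WT and 3.62 and 10.2 CPM in dKO. Ehd3, an endocytic recycling gene, stood at 429 and 329 CPM in WT and 17.2 and 25.3 CPM in dKO. All 3 were low in both dKO libraries, with Ehd3 17.8-fold lower (log2 fold change -4.16 with an SE of 0.29, adjusted p = 0.00131). Maf, a transcription factor of sinusoidal identity, fell 9.58-fold (63.8 and 45 against 3.22 and 8.15 CPM), Ntn4, a netrin of basement membranes, 5.72-fold (542 and 581 against 42 and 154 CPM) and Bmp6, the endothelial signal for hepatic hepcidin, 3.13-fold (424 and 506 against 86.4 and 211 CPM). Adgrf5 fell 2.55-fold (856 and 868 against 264 and 413 CPM), and the transcription factor genes Gata4 and Meis2 1.94-fold and 1.74-fold. The cadherin gene Cdh13 rose 3.25-fold (257 and 271 against 1082 and 633 CPM) and the protease gene Ctsl 2.03-fold (530.1 and 624 against 1227 and 1110.05 CPM). Stab1 stood at 1737 and 2053 CPM in WT and 18.6 and 611 CPM in dKO and did not pass (adjusted p = 0.313). Of the angiocrine Wnt genes, Wnt2 stood at 0.111 and 0.573 CPM in WT and 0.447 and 1.12 CPM in dKO. Wnt9b stood at 189 and 92.5 CPM in WT and 3.35 and 0.748 CPM in dKO, and neither passed. The counts of higher and lower members were 0 and 2 with WT replicate 1 left out, 1 and 3 with WT replicate 2 left out, 4 and 5 with dKO replicate 1 left out and 4 and 10 with dKO replicate 2 left out. Leaving out both dKO replicate 2 libraries gave 5 and 15. Among the calls named here, those of Clec4g and Ehd3 survived each of the 4 leave-outs and the rest did not survive all of them. With values already known, Maf, Ntn4, Bmp6, Adgrf5, Gata4, Meis2, Cdh13, Ctsl, Wnt2 and Wnt9b were included here.

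Angiogenic growth factors and their receptors rose in 13 of 41 cases (31.7%) and fell in 2 (4.88%, median log2 fold change 0.83). Among ligands, Vegfa stood at 296 and 256 CPM in WT and 2735 and 1548 CPM in dKO and Vegfc at 35.1 and 36.2 CPM in WT and 599.7 and 405 CPM in dKO. Vegfd stood at 0.591 and 1.96 CPM in WT and 38 and 19 CPM in dKO. All 3 VEGF genes were higher in both dKO libraries, with adjusted p = 0.00485, 0.00163 and 0.00661. Fgf2 rose 9.31-fold (9.67 and 13.2 against 129 and 84 CPM), Hgf, a growth factor for hepatocytes, 3.49-fold (57.9 and 48 against 182 and 187 CPM) and Pdgfa 1.85-fold (39.2 and 40.6 against 71.8 and 75.8 CPM, with 26% of its exon bases covered by another gene). Among receptors, Pdgfra, which binds PDGF-A and marks fibroblasts, stood at 2.07 and 3.67 CPM in WT and 933 and 615 CPM in dKO, 325-fold and 214-fold above WT in dKO replicate 1 and 2. Pdgfrb, of pericytes, rose 16.1-fold (3.25 and 4.55 against 59.3 and 66.2 CPM), Egfr 5.76-fold (9.45 and 12.9 against 76.9 and 51.7 CPM), and Fgfr1 and Fgfr2 2.61-fold and 3.3-fold. Ntrk3, a neurotrophin receptor gene, had 463 counts in dKO and 1 in WT, which gives a ratio of 566 (95% counting interval 101 to 22400.1). Tie1, the orphan receptor that works with Tek, fell 3.39-fold (466 and 473 against 109.9 and 167 CPM) and the VEGF co-receptor gene Nrp1 1.62-fold (188 and 173 against 122 and 101 CPM). Flt1, a VEGF decoy receptor gene, stood at 323 and 247 CPM in WT and 186 and 254 CPM in dKO and did not pass (adjusted p = 0.298). Without each library the counts stood at 10 and 0 with WT replicate 1 left out, 11 and 0 with WT replicate 2 left out, 12 and 2 with dKO replicate 1 left out and 14 and 1 with dKO replicate 2 left out, and at 16 and 9 without either dKO replicate 2 library. Only Vegfa, Vegfc, Vegfd, Fgf2, Hgf, Pdgfra, Pdgfrb, Fgfr1 and Ntrk3 among the genes named here kept their call in all 4 fits with a library left out. Values were known when Vegfa, Vegfc, Fgf2, Hgf, Pdgfa, Egfr, Fgfr1, Fgfr2 and Nrp1 were chosen.

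In the TGF-beta and BMP list 12 of 44 rose (27.3%) and 4 fell (9.09%, near the share over all genes, median log2 fold change 0.02). Secreted BMP antagonists were among the rises. Grem1 stood at 20.7 and 55.3 CPM in WT and 1282 and 2225 CPM in dKO and Chrd at 0.591 and 1.52 CPM in WT and 21 and 14.3 CPM in dKO. Nog stood at 0.111 and 0.169 CPM in WT and 0.804 and 1.04 CPM in dKO, and Bmper rose 4.25-fold (26.4 and 19.7 against 126 and 69.7 CPM). Chrdl1, of the same family, went the other way, from 7.75 and 13.8 CPM in WT to 0 and 0.208 CPM in dKO (log2 fold change -6.59 with an SE of 0.99, adjusted p = 0.00898). Of the receptors, Tgfbr1 rose 2.13-fold (52.2 and 48.6 against 104 and 111 CPM) and Bmpr1a 1.97-fold, while Acvrl1, the BMP9 and BMP10 receptor gene of endothelium, fell 1.65-fold (90.9 and 88.1 against 45.4 and 63.3 CPM) and Bmpr2 1.54-fold (451 and 461 against 262 and 329 CPM). Smad6, an inhibitory SMAD and BMP target, fell 2.32-fold (169.7 and 154 against 57.2 and 82.2 CPM). The ligand genes Tgfb3 and Inhba rose 2.44-fold and 2.07-fold, and the TGF-beta-induced gene Tgfbi 12-fold (1.11 and 1.62 against 20 and 12.8 CPM). Id1, a BMP target, stood at 92.1 and 100.5 CPM in WT and 26.7 and 79.7 CPM in dKO and did not pass (adjusted p = 0.353). Rises and falls numbered 4 and 1 with WT replicate 1 left out, 6 and 0 with WT replicate 2 left out, 8 and 2 with dKO replicate 1 left out and 11 and 8 with dKO replicate 2 left out, and 13 and 16 without either dKO replicate 2 library. In the fits that left out 1 of the 4 libraries, Grem1, Tgfbr1 and Tgfbi passed each time, and the other calls named here did not pass each time. Nog, Bmpr1a, Acvrl1, Bmpr2, Smad6, Inhba and Id1 are genes chosen after their values were seen.

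Notch genes showed both directions, 5 of 21 higher (23.8%) and 3 lower (14.3%), against 13.4% and 9.66% of all genes (median log2 fold change 0.15). Of the receptors, Notch1 stood at 128 and 116 CPM in WT and 26.8 and 56.2 CPM in dKO and fell 2.94-fold. Notch3, the receptor of mural cells, stood at 0.628 and 0.506 CPM in WT and 27.8 and 22.7 CPM in dKO and rose 44.6-fold, and Notch2 rose 4.13-fold (7.98 and 4.92 against 31.7 and 21.6 CPM). The endothelial receptor gene Notch4 stood at 57.1 and 65.1 CPM in WT and 5.41 and 58.3 CPM in dKO and did not pass. Of the ligands, Jag1 fell 2.87-fold (119 and 112 against 47.9 and 32.4 CPM). The arterial ephrin gene Efnb2 rose 1.74-fold (182 and 173 against 367 and 252 CPM) and its venous receptor gene Ephb4 fell 1.54-fold (355 and 352 against 235 and 225 CPM). In the axon guidance list 10 of 38 rose (26.3%) and 3 fell (7.89%). Sema5a rose 10.3-fold (2.66 and 2.12 against 33.2 and 16 CPM) and Ephb3 10.9-fold (1.26 and 1.42 against 16.4 and 12.6 CPM), Plxna2 fell 4.54-fold (144 and 147 against 19.5 and 44.7 CPM) and Sema3e, a ligand of plexin D1, 3.41-fold (53.1 and 83.4 against 19.6 and 20.5 CPM). Notch members higher and lower were 2 and 1 with WT replicate 1 left out, 1 and 1 with WT replicate 2 left out, 4 and 2 with dKO replicate 1 left out and 6 and 5 with dKO replicate 2 left out. With neither dKO replicate 2 library in the fit, 6 and 8 were called. Guidance members were 3 and 1 with WT replicate 1 left out, 2 and 1 with WT replicate 2 left out, 4 and 1 with dKO replicate 1 left out and 10 and 5 with dKO replicate 2 left out. Both dKO replicate 2 libraries left out, the numbers were 12 and 9. The calls of Notch3, Jag1 and Ephb3 held when each of the 4 libraries was left out in turn, and the other calls named here were lost without at least 1 of them. Notch4, Efnb2 and Ephb4 were chosen after their values were seen.

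Among Wnt and R-spondin genes 11 of 32 rose (34.4%) and 3 fell (9.4%, near the share over all genes, median log2 fold change 0.66). Wnt4 stood at 0.775 and 0.303 CPM in WT and 16.9 and 15.5 CPM in dKO and Wnt16 at 0.185 and 0.101 CPM in WT and 10.5 and 15 CPM in dKO. Wnt5a stood at 0.443 and 0.371 CPM in WT and 5.27 and 1.91 CPM in dKO. These ligand genes were under 1 CPM in WT and higher in both dKO libraries. Secreted Wnt inhibitors also rose, with Sfrp4 at 0.258 and 0.101 CPM in WT and 21.2 and 9.11 CPM in dKO and Sfrp2 at 0.111 and 2.06 CPM in WT and 61.4 and 58.3 CPM in dKO. Dkk2 stood at 0.295 and 0.101 CPM in WT and 6.52 and 1.25 CPM in dKO and rose 19.6-fold. The members that fell were receptor genes, Fzd4 (349.7 and 317 against 268 and 225 CPM), Fzd6 (378 and 436 against 186 and 204 CPM) and Lrp5 (341 and 312 against 220.2 and 242 CPM). FZD4 and LRP5 are receptors for norrin in retinal endothelium. Of 18 HOX genes, which set position along the body axis, 3 rose (16.7%, near the 13.4% of all genes), among them Hoxa2 (7.27 and 5.49 against 14.9 and 10.2 CPM) and Hoxa3 (15.8 and 17.5 against 42.5 and 33.6 CPM, 18% of its exon bases covered by another gene). Wnt counts became 4 and 1 with WT replicate 1 left out, 4 and 1 with WT replicate 2 left out, 5 and 2 with dKO replicate 1 left out and 9 and 2 with dKO replicate 2 left out. These became 12 and 2 without both dKO replicate 2 libraries. HOX counts became 0 and 0 with WT replicate 1 left out, 0 and 0 with WT replicate 2 left out, 1 and 0 with dKO replicate 1 left out and 5 and 0 with dKO replicate 2 left out. Without either dKO replicate 2 library they were 5 and 0. Leaving out each of the 4 libraries in turn kept the calls of Wnt4, Wnt16, Sfrp4 and Fzd6 and lost the other calls named here at least once. The choice of Fzd4, Fzd6 and Lrp5 was made after their values were seen.

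Mesenchymal and mural transcription factors rose in 7 of 31 cases (22.6%) and fell in 4 (12.9%, median log2 fold change 0.20), against 13.4% and 9.66% of all genes. Prrx1, of limb and fibroblast mesenchyme, stood at 0.591 and 2.7 CPM in WT and 89.2 and 119 CPM in dKO. Runx2, a bone factor gene, stood at 0.591 and 1.21 CPM in WT and 16.5 and 18.4 CPM in dKO. Sox9, of cartilage and bile ducts, stood at 0.332 and 0.303 CPM in WT and 7.73 and 11.2 CPM in dKO. All 3 rose, by 63.3-fold, 19.3-fold and 29.8-fold, and the dKO libraries lay within 2-fold of each other. Snai1 rose 3.75-fold (5.58 and 5.9 against 21.5 and 21.5 CPM) and Runx1 2.92-fold (7.5 and 7.25 against 27.6 and 15.5 CPM). Twist1, a factor of epithelial-mesenchymal transition, stood at 3.73 and 6.47 CPM in WT and 6.3 and 8.44 CPM in dKO (adjusted p = 0.352), Snai2 at 2.88 and 4.08 CPM in WT and 2.9 and 2.41 CPM in dKO (adjusted p = 0.437) and Zeb2 at 89.8 and 76.4 CPM in WT and 97.1 and 87.6 CPM in dKO (adjusted p = 0.434), and none of these passed. Msx2 fell 11-fold (18.6 and 21.1 against 0.402 and 3.2 CPM) and Nr2f1 1.94-fold (27.4 and 35.4 against 14.1 and 18.3 CPM). Counts higher and lower were 4 and 0 with WT replicate 1 left out, 4 and 0 with WT replicate 2 left out, 5 and 0 with dKO replicate 1 left out and 7 and 2 with dKO replicate 2 left out. They were 7 and 2 without either dKO replicate 2 library. Among the calls named here, those of Prrx1, Runx2, Sox9 and Snai1 survived each of the 4 leave-outs and the rest did not survive all of them. After their values were seen, Snai1, Runx1 and Nr2f1 were added to the genes named by rule.

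Contractile and cytoskeletal genes of smooth muscle rose in 6 of 25 cases. The number lower was 0 in edgeR, 1 in DESeq2 and 3 at an unadjusted p under 0.05. Acta2, the smooth muscle actin gene, stood at 5.83 and 10.5 CPM in WT and 10.5 and 12.3 CPM in dKO (adjusted p = 0.497), Tagln at 0.295 and 0.876 CPM in WT and 1.12 and 0.748 CPM in dKO (adjusted p = 0.427) and Cnn1 at 0.628 and 0.573 CPM in WT and 0.804 and 0.998 CPM in dKO (adjusted p = 0.45). None of these 3 defining genes passed. Those that rose included the light chain gene Myl9, 3.36-fold (17.1 and 18.2 against 59.4 and 59.2 CPM), tropomyosin Tpm2, 4.88-fold (3.4 and 5.49 against 19 and 24.4 CPM), and Cald1, the caldesmon gene, 2.03-fold (352 and 372 against 785 and 689 CPM). The number that rose and fell was 0 and 0 with WT replicate 1 left out, 2 and 0 with WT replicate 2 left out, 2 and 0 with dKO replicate 1 left out and 5 and 0 with dKO replicate 2 left out. Leaving out both dKO replicate 2 libraries gave 5 and 2. No call named here was kept in all 4 fits that left out 1 library.

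Matrix genes rose in large numbers. Of 33 collagen genes 15 rose (45.5%) and 1 fell (3.03%, median log2 fold change 1.31). The fibrillar collagen genes Col1a1 and Col1a2 stood at 9.19 and 5.43 and at 4.73 and 4.45 CPM in WT, and at 213 and 117 and at 218 and 163 CPM in dKO. Col3a1 stood at 24.1 and 27.2 CPM in WT and 1831 and 332 CPM in dKO. The beaded filament collagen gene Col6a1 stood at 4.39 and 5.93 CPM in WT and 738 and 163 CPM in dKO. Both dKO libraries were far above WT in these genes, and replicate 1 stood above replicate 2 by more than 4-fold in Col3a1 and Col6a1. The basement membrane genes Col4a3 and Col4a4 rose 4.94-fold and 8.37-fold (5.95 and 4.85 against 55 and 35.5 CPM for Col4a4), whereas Col4a1 and Col4a2, the common chains, stood at 799.6 and 1131 CPM in WT and 589.6 and 974 CPM in dKO and at 480.3 and 663 CPM in WT and 335 and 552 CPM in dKO and did not pass (adjusted p = 0.503 and 0.435). Col16a1 rose 14.2-fold (9.19 and 11.5 against 192 and 103 CPM) and Col12a1 8.65-fold (42.5 and 17.4 against 324 and 194 CPM). Col11a1 fell 5.41-fold (5.06 and 4.38 against 1.16 and 0.582 CPM). Collagen counts were 4 and 0 with WT replicate 1 left out, 4 and 0 with WT replicate 2 left out, 11 and 1 with dKO replicate 1 left out and 15 and 1 with dKO replicate 2 left out. With neither dKO replicate 2 library in the fit, 17 and 3 were called. Only Col1a2, Col4a4 and Col16a1 among the genes named here kept their call in all 4 fits with a library left out. Outside the naming rule, Col4a3, Col4a4, Col4a2, Col16a1, Col12a1 and Col11a1 were picked with their values known.

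Of 50 proteoglycan, elastic fibre and other matrix genes 21 rose (42.0%) and 2 fell (4.0%, median log2 fold change 1.29). Fbln1, a fibulin gene, stood at 2.92 and 3.13 CPM in WT and 1984 and 641 CPM in dKO, and Has2, the hyaluronan synthase gene, had 0 counts in WT and 14.8 and 13.5 CPM in dKO, at least 267-fold higher. Mgp, an inhibitor of calcification and of BMP, stood at 1.77 and 10.2 CPM in WT and 337 and 719 CPM in dKO. The groups did not overlap in these 3 genes. The elastic fibre genes Fbn1 and Mfap2 rose 11.1-fold (10 and 10.3 against 114 and 112 CPM) and 24.7-fold (0.295 and 1.35 against 23.4 and 17.3 CPM), Emilin2 rose 13.6-fold (4.73 and 6.44 against 73.7 and 77.7 CPM) and Thbs2, an angiogenesis inhibitor gene, 11.2-fold (10.1 and 9.54 against 160.3 and 60.2 CPM). The small proteoglycan genes Lum and Bgn rose 6.13-fold and 2.57-fold. Dcn, of the same family, stood at 9024 and 9174 CPM in WT and 13428 and 11699 CPM in dKO, high in all 4 libraries (adjusted p = 0.0796). Fibronectin (Fn1) stood at 1246 and 2257 CPM in WT and 2772 and 5149.6 CPM in dKO and did not pass (adjusted p = 0.0624). The laminin genes split, with Lamb1 1.92-fold higher (193 and 196 against 350.4 and 395 CPM) and Lamc1 1.96-fold lower (287 and 271 against 114 and 169.8 CPM). In this list the numbers were 8 and 0 with WT replicate 1 left out, 12 and 0 with WT replicate 2 left out, 17 and 1 with dKO replicate 1 left out and 22 and 4 with dKO replicate 2 left out. Both dKO replicate 2 libraries left out, the numbers were 26 and 6. In the fits that left out 1 of the 4 libraries, Has2, Fbn1, Mfap2 and Emilin2 passed each time, and the other calls named here did not pass each time. With values already known, Fbn1, Emilin2, Thbs2, Lamb1 and Lamc1 were included here.

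**Figure D4:**
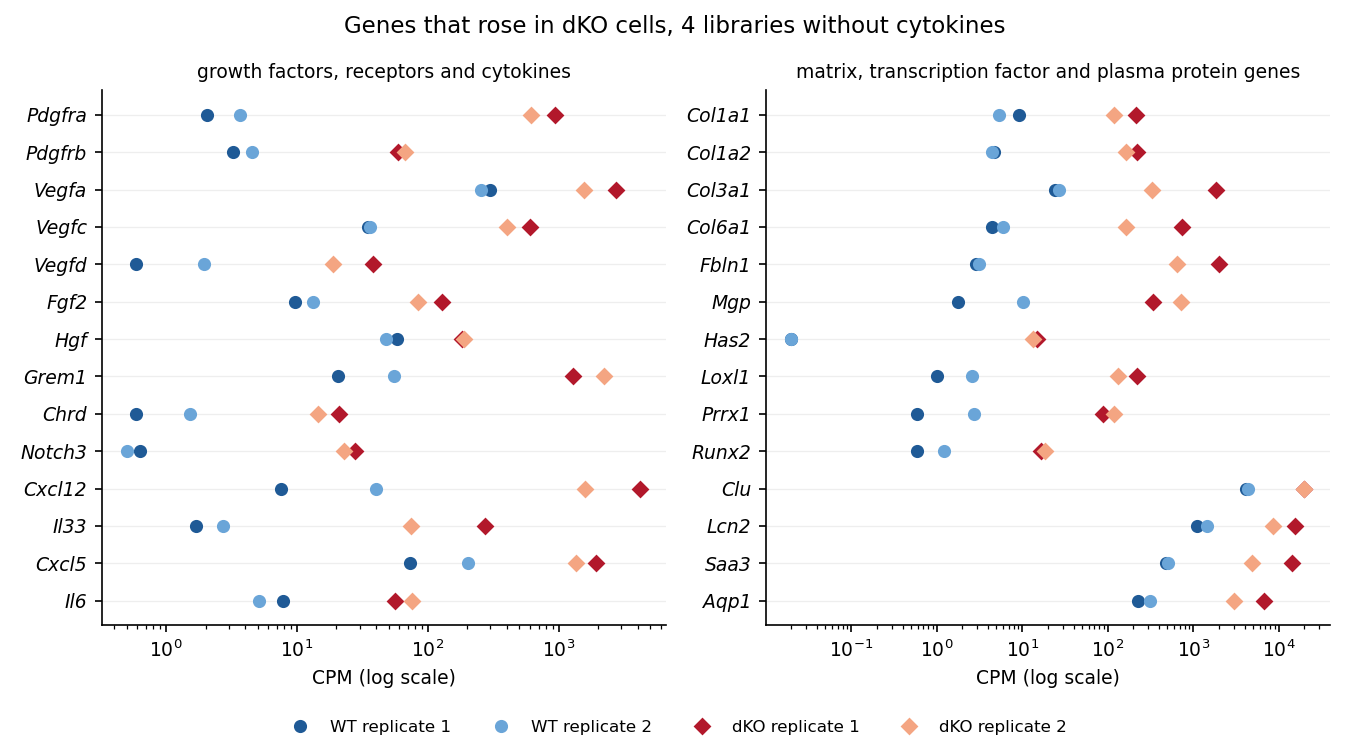
CPM on a log axis of 28 genes that rose, in the 4 libraries, WT as blue circles and dKO as diamonds (replicate 1 dark red, replicate 2 light red), with 0 drawn at 0.02 CPM. Both dKO libraries lie right of both WT libraries in each gene, and Col3a1 and Col6a1 show the widest gaps between the dKO libraries.

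Matrix proteases, their inhibitors and crosslinkers rose in 18 of 37 cases (48.6%) and fell in 2 (5.41%, median log2 fold change 1.48). The stromelysin gene Mmp3 stood at 6.06 and 22.1 CPM in WT and 844 and 372 CPM in dKO and the plasminogen activator inhibitor gene Serpinb2 at 0.591 and 1.21 CPM in WT and 219 and 156 CPM in dKO. The crosslinking oxidase gene Loxl1 stood at 0.997 and 2.6 CPM in WT and 221 and 131 CPM in dKO. Groups did not overlap in any of the 3, and they rose 43.1-fold, 208-fold and 97.9-fold. Adamts2, which trims procollagen, rose 10.5-fold (5.39 and 5.56 against 65.3 and 49.6 CPM), Lox 4.65-fold (172 and 202 against 1071 and 667 CPM), Timp1 4.33-fold (57.6 and 63.9 against 294 and 233 CPM) and the membrane protease gene Mmp14 2.2-fold (209.96 and 224 against 438 and 515 CPM). The urokinase receptor gene Plaur fell 3.07-fold (80.6 and 83.4 against 18.7 and 34.7 CPM) and Loxl2 1.95-fold (315 and 313 against 145 and 177 CPM). Of 22 integrin subunits 6 rose (27.3%) and 2 fell (9.09%, near the share over all genes). Itgav and its partner Itgb5 rose 2.41-fold (62.3 and 60.1 against 166 and 129 CPM) and 10.7-fold (2.62 and 4.01 against 42.1 and 28.6 CPM), the laminin receptor gene Itga7 3.61-fold (38 and 49.2 against 186 and 129 CPM), and the collagen receptor gene Itga11, at 0 counts in WT, at least 42-fold. Itga3 fell 2.06-fold (171 and 187 against 68.2 and 106 CPM). Protease counts were 7 and 0 with WT replicate 1 left out, 9 and 0 with WT replicate 2 left out, 13 and 0 with dKO replicate 1 left out and 16 and 2 with dKO replicate 2 left out. These became 19 and 4 without both dKO replicate 2 libraries. Integrin counts were 4 and 0 with WT replicate 1 left out, 4 and 0 with WT replicate 2 left out, 5 and 0 with dKO replicate 1 left out and 6 and 3 with dKO replicate 2 left out. Without either dKO replicate 2 library they were 8 and 4. The calls of Serpinb2, Loxl1, Adamts2, Itgav, Itgb5 and Itga11 held when each of the 4 libraries was left out in turn, and the other calls named here were lost without at least 1 of them. Values were known when Plaur, Loxl2 and Itgav were chosen.

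Markers of other cell types the sort could hold were counted beside these rises. Of 18 markers of stellate cells, pericytes and fibroblasts, 13 were tested, 2 rose (Pdgfrb and Lox, 15.4%) and 1 fell (Hand2, 7.69%), near the shares over all genes. Their summed level was 477 to 579 CPM in WT and, in dKO replicate 1 and 2, 1530.1 and 1162 CPM. Lox, whose levels are given above, made up most of that sum in both dKO libraries. Lrat, a defining stellate cell gene, had 0 counts in all 4 libraries, while Thy1, of fibroblasts, stood at 90.9 and 128 CPM in WT and 6.7 and 31.6 CPM in dKO. Kcnj8, of pericytes, stood at 28.7 and 74 CPM in WT and 99.9 and 138 CPM in dKO, and neither passed. Of 18 leukocyte and Kupffer cell markers 13 had 0 counts in all 4 libraries, Ptprc, the gene of CD45, among them. Of the 4 tested, the number higher was 0 in edgeR, 0 in DESeq2 and 0 at an unadjusted p under 0.05, and the number lower was 0 in edgeR, 1 in DESeq2 and 1 at an unadjusted p under 0.05. Cd14 made up most of that list's summed level of 252 to 396 CPM in WT and, in dKO replicate 1 and 2, 201 and 202 CPM. Of 18 hepatocyte markers 8 had 0 counts in all 4 libraries, Alb among them. Of the 5 tested, 3 rose (60%, against 13.4% of all genes). These 3 encode plasma proteins: Ahsg (0.48 and 0.438 against 226 and 105 CPM), Hp (0.591 and 1.04 against 56.9 and 57.2 CPM) and Trf (3.95 and 3.98 against 26.5 and 24.5 CPM). The list's sum was 9.61 to 10.6 CPM in WT and, in dKO replicate 1 and 2, 310.1 and 190.4 CPM. Of 9 tested cholangiocyte and mesothelial markers 2 rose (22.2%), Spp1 (1.48 and 0.438 against 25.6 and 73 CPM) and Sox9, and 2 fell (22.2%), among them Gpm6a (517 and 562 against 133 and 156 CPM). This list summed to 552 to 597 CPM in WT and, in dKO replicate 1 and 2, 195 and 268 CPM. Gpm6a made up most of that sum in all 4 libraries, so the sum does not describe the other members. The median log2 fold change of the 9 tested was 2.68, with 5 above 0 and 4 below. Keratins and epithelial genes had 1 of 20 higher, Cdh1 (0.739 and 0.405 against 3.31 and 2.66 CPM), and 4 lower. Epithelial counts were 0 and 0 with WT replicate 1 left out, 0 and 1 with WT replicate 2 left out, 0 and 0 with dKO replicate 1 left out and 1 and 4 with dKO replicate 2 left out. They were 1 and 8 without either dKO replicate 2 library. The part of other cells in the rises of matrix and growth factor genes was not tested. Leaving out each of the 4 libraries in turn kept the calls of Pdgfrb, Ahsg, Hp, Trf, Sox9 and Gpm6a and lost the other calls named here at least once. Hand2, Thy1 and Kcnj8 are genes chosen after their values were seen.

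DNA replication and mitosis genes fell in 25 of 48 cases (52.1%) and rose in 1 (2.08%). The median log2 fold change was -1.14, with -1.34 in dKO replicate 1 and -0.88 in replicate 2. The proliferation marker gene Mki67 stood at 14.1 and 14 CPM in WT and 2.64 and 5.24 CPM in dKO and the topoisomerase gene Top2a at 22.4 and 24.9 CPM in WT and 8.45 and 12.3 CPM in dKO. The helicase subunit gene Mcm2 stood at 38 and 37.8 CPM in WT and 12 and 19 CPM in dKO. Each was lower in both dKO libraries, and dKO replicate 1 was the lower of the pair. Mcm5 fell 4.04-fold (12.6 and 15.8 against 2.95 and 4.07 CPM), the polymerase gene Pole 5.97-fold (15.1 and 11 against 1.88 and 2.49 CPM) and Foxm1, a mitotic transcription factor, 2.61-fold (10.5 and 11.8 against 3.53 and 5.03 CPM). Cdk1 fell 1.5-fold (24.2 and 26.6 against 16.9 and 16.9 CPM). E2f1 was the member that rose, 1.52-fold (23.9 and 26.4 against 37.4 and 39.1 CPM). Of 20 CDK inhibitors and D cyclins 5 rose (25%) and 1 fell (5%), against 13.4% and 9.66% of all genes (median log2 fold change 0.11). Cdkn2a, the p16 and p19 locus, rose 2.31-fold (51.9 and 63.2 against 132 and 134 CPM), Cdkn1c 6.92-fold (2.14 and 1.31 against 17.3 and 6.57 CPM) and Ccnd2 1.78-fold (595 and 594 against 1203 and 914 CPM). Ccnd1 fell 2.31-fold (101 and 90.3 against 37.4 and 45.7 CPM, 23% of its exon bases covered by another gene), and Cdkn1a, the p21 gene, stood at 67.7 and 96.2 CPM in WT and 56 and 114 CPM in dKO and did not pass (adjusted p = 0.921). Cycle genes higher and lower were 0 and 4 with WT replicate 1 left out, 0 and 6 with WT replicate 2 left out, 1 and 10 with dKO replicate 1 left out and 2 and 23 with dKO replicate 2 left out. Leaving out both dKO replicate 2 libraries gave 2 and 31. CDK inhibitors and D cyclins were 1 and 0 with WT replicate 1 left out, 1 and 1 with WT replicate 2 left out, 4 and 1 with dKO replicate 1 left out and 6 and 2 with dKO replicate 2 left out. With neither dKO replicate 2 library in the fit, 8 and 5 were called. Among the calls named here, those of Mcm5, Pole and Cdkn2a survived each of the 4 leave-outs and the rest did not survive all of them. Foxm1, Cdk1 and E2f1 were chosen after their values were seen.

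Glycolysis and hypoxia response genes rose in 15 of 32 cases (46.9%, median log2 fold change of the list 0.45). Lower members numbered 0 in edgeR, 1 in DESeq2 and 1 at an unadjusted p under 0.05. The oxygen sensor gene Egln3 stood at 229.6 and 231 CPM in WT and 989 and 883 CPM in dKO and lactate dehydrogenase (Ldha) at 1179.6 and 1234 CPM in WT and 2167 and 1759.9 CPM in dKO. The mTOR inhibitor gene Ddit4 stood at 51.7 and 66.1 CPM in WT and 213 and 164 CPM in dKO. They rose 4.06-fold, 1.63-fold and 3.2-fold. Slc2a1, the glucose transporter gene, stood at 269 and 307 CPM in WT and 363 and 421 CPM in dKO and did not pass (adjusted p = 0.0639). Of 35 nuclear genes of the respiratory chain 6 fell (17.1%) and the higher ones were 0 in edgeR, 0 in DESeq2 and 2 at an unadjusted p under 0.05, with Cycs, the cytochrome c gene, 2.1-fold lower (28.4 and 33.6 against 13.6 and 15.9 CPM). Among fatty acid genes 8 of 26 rose (30.8%) and 3 fell (11.5%, near the share over all genes). Lipoprotein lipase (Lpl) stood at 2.14 and 1.65 CPM in WT and 158 and 49.2 CPM in dKO, Scd1 rose 5.14-fold (21.4 and 17.1 against 119 and 78.7 CPM) and the fatty acid chaperone gene Fabp5 fell 3.07-fold (63.2 and 30.4 against 11.8 and 18.6 CPM). Fabp4, an endothelial relative, stood at 266 and 225 CPM in WT and 131 and 174 CPM in dKO and did not pass (adjusted p = 0.0949). Glycolysis counts were 2 and 0 with WT replicate 1 left out, 2 and 0 with WT replicate 2 left out, 4 and 0 with dKO replicate 1 left out and 13 and 0 with dKO replicate 2 left out. Both dKO replicate 2 libraries left out, the numbers were 18 and 2. Fatty acid counts were 1 and 0 with WT replicate 1 left out, 1 and 1 with WT replicate 2 left out, 3 and 1 with dKO replicate 1 left out and 9 and 3 with dKO replicate 2 left out. These became 12 and 6 without both dKO replicate 2 libraries. Respiratory chain counts were 0 and 1 with WT replicate 1 left out, 0 and 1 with WT replicate 2 left out, 0 and 2 with dKO replicate 1 left out and 1 and 2 with dKO replicate 2 left out. Without either dKO replicate 2 library they were 3 and 6. Only Egln3 and Cycs among the genes named here kept their call in all 4 fits with a library left out.

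In the unfolded protein and integrated stress response list 7 of 30 fell (23.3%). Higher members were 0 in edgeR, 1 in DESeq2 and 3 at an unadjusted p under 0.05. The fallen members were Atf4 (427 and 484 against 271 and 282 CPM), the master factor of that response, and genes of amino acid supply. Of these, Phgdh, the first enzyme of serine synthesis, stood at 32.1 and 29.1 CPM in WT and 8.13 and 8.73 CPM in dKO and Asns, asparagine synthetase, at 94.9 and 110.03 CPM in WT and 28.3 and 48.2 CPM in dKO. The transporter gene Slc7a5 stood at 39.7 and 42.4 CPM in WT and 16.5 and 20.8 CPM in dKO. They fell 3.63-fold, 2.68-fold and 2.2-fold. Psat1, Shmt2 and Slc3a2 made up the rest, and the chaperone gene Hspa5 stood at 1090.01 and 1092 CPM in WT and 1059 and 1047 CPM in dKO (adjusted p = 0.761). Among 27 antioxidant and metallothionein genes 8 rose (29.6%), with lower members 0 in edgeR, 1 in DESeq2 and 3 at an unadjusted p under 0.05. Mt1 stood at 50.4 and 83.1 CPM in WT and 533 and 325 CPM in dKO. Mt2 stood at 0.591 and 0.809 CPM in WT and 10.6 and 6.53 CPM in dKO, and the extracellular enzymes Sod3 and Gpx3 rose 7.79-fold (8.49 and 13 against 101 and 66.5 CPM) and 7.53-fold (72.9 and 59.8 against 273 and 725 CPM). The targets of NRF2 Hmox1 and Nqo1 stood at 197 and 208 CPM in WT and 136 and 159 CPM in dKO and at 25.9 and 16.8 CPM in WT and 22.1 and 11.9 CPM in dKO and did not pass. The stress response list stood at 0 and 2 with WT replicate 1 left out, 0 and 1 with WT replicate 2 left out, 0 and 3 with dKO replicate 1 left out and 2 and 6 with dKO replicate 2 left out. They were 3 and 10 without either dKO replicate 2 library. The antioxidant list stood at 3 and 0 with WT replicate 1 left out, 5 and 0 with WT replicate 2 left out, 6 and 0 with dKO replicate 1 left out and 9 and 0 with dKO replicate 2 left out. Leaving out both dKO replicate 2 libraries gave 12 and 5. In the fits that left out 1 of the 4 libraries, Phgdh, Mt2 and Sod3 passed each time, and the other calls named here did not pass each time. Shmt2 was chosen after its values were seen.

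Without any added cytokine, 12 of 42 chemokine, cytokine and receptor genes were higher in dKO (28.6%) and 4 lower (9.52%, near the share over all genes, median log2 fold change 0.57). Cxcl12, a chemokine of stromal cells, stood at 7.57 and 40.2 CPM in WT and 4171 and 1571 CPM in dKO and the alarmin gene Il33 at 1.7 and 2.7 CPM in WT and 273 and 74.3 CPM in dKO. Cxcl5, a neutrophil chemokine gene, stood at 72.9 and 203 CPM in WT and 1932 and 1349.8 CPM in dKO. Both dKO libraries lay above both WT libraries in all of them. Il6 rose 10.1-fold (7.87 and 5.09 against 55.9 and 75.6 CPM), Cxcl2 and Cxcl3 7.49-fold and 14.5-fold, and the monocyte chemokine gene Ccl7 5.67-fold (171 and 191 against 1103 and 951 CPM). Ccl2 stood at 1585 and 1624 CPM in WT and 1285 and 1664 CPM in dKO. Cxcl1 stood at 56.3 and 136 CPM in WT and 121 and 169.7 CPM in dKO, and neither passed (adjusted p = 0.674 and 0.485). Of the receptors, Il1r1 rose 1.68-fold (239 and 239.8 against 442 and 363 CPM), Il1rap 2.33-fold and Tnfrsf1b, TNF receptor 2, 3.8-fold (23.2 and 24.3 against 110.3 and 70.4 CPM), while Tnfrsf1a, TNF receptor 1, fell 1.34-fold (444 and 481 against 331 and 361 CPM). The gene of the death ligand TRAIL, Tnfsf10, fell 11.8-fold (97.4 and 67.5 against 3.49 and 10.4 CPM). Numbers higher and lower were 5 and 0 with WT replicate 1 left out, 6 and 0 with WT replicate 2 left out, 10 and 1 with dKO replicate 1 left out and 13 and 4 with dKO replicate 2 left out, and 14 and 10 without either dKO replicate 2 library. The calls of Cxcl5, Il6, Cxcl2, Cxcl3 and Ccl7 held when each of the 4 libraries was left out in turn, and the other calls named here were lost without at least 1 of them. The choice of Cxcl5, Cxcl2, Ccl7, Il1r1, Il1rap, Tnfrsf1b and Tnfrsf1a was made after their values were seen.

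Leukocyte adhesion genes fell in 3 of 17 cases (17.6%), and the number higher was 0 in edgeR, 1 in DESeq2 and 1 at an unadjusted p under 0.05. Icam1, the ligand of leukocyte integrins, stood at 968 and 1111 CPM in WT and 265 and 497 CPM in dKO and fell 2.73-fold, and Alcam fell 3.64-fold (59.4 and 49.1 against 12.7 and 17.1 CPM). Vcam1 stood at 686 and 548 CPM in WT and 1179.8 and 953 CPM in dKO (adjusted p = 0.0878) and E-selectin (Sele) at 461 and 426 CPM in WT and 15.8 and 104 CPM in dKO (adjusted p = 0.057). Of 37 interferon response and antigen presentation genes 3 rose and 3 fell, 8.11% in each direction, which is below the shares over all genes (13.4% and 9.66%). The MHC class II gene H2-Ab1 stood at 0.0739 and 0.135 CPM in WT and 5.94 and 4.95 CPM in dKO and the nucleic acid sensor gene Zbp1 at 0.258 and 0.438 CPM in WT and 10.5 and 5.07 CPM in dKO. The antiviral membrane protein gene Bst2 stood at 259 and 379 CPM in WT and 73.6 and 130.3 CPM in dKO. The first 2 rose and Bst2 fell 3.13-fold. Irf7, an interferon regulatory factor gene, stood at 7.46 and 10.3 CPM in WT and 6.88 and 6.44 CPM in dKO and did not pass. Adhesion counts were 0 and 1 with WT replicate 1 left out, 0 and 1 with WT replicate 2 left out, 0 and 2 with dKO replicate 1 left out and 0 and 6 with dKO replicate 2 left out. With neither dKO replicate 2 library in the fit, 0 and 8 were called. Interferon counts were 1 and 0 with WT replicate 1 left out, 1 and 0 with WT replicate 2 left out, 1 and 0 with dKO replicate 1 left out and 2 and 3 with dKO replicate 2 left out. Both dKO replicate 2 libraries left out, the numbers were 1 and 3. Leaving out each of the 4 libraries in turn kept the calls of Alcam and H2-Ab1 and lost the other calls named here at least once.

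Complement and acute-phase genes rose in 15 of 27 cases (55.6%) and fell in 2 (7.41%, median log2 fold change 1.99). Many were abundant in WT already. Complement C3 stood at 1906 and 2267 CPM in WT and 9758 and 4414 CPM in dKO and clusterin (Clu), a secreted chaperone and complement inhibitor, at 4104 and 4389 CPM in WT and 19521 and 19835 CPM in dKO. Lcn2, an iron-carrier binding protein, stood at 1112 and 1440.01 CPM in WT and 15630.1 and 8556 CPM in dKO. C1s1 and C1ra, proteases of the first complement component, rose 4.48-fold and 2.48-fold, and their inhibitor gene Serping1 3.97-fold (126 and 176 against 763 and 437 CPM). The serum amyloid gene Saa3 stood at 480.3 and 509 CPM in WT and 14140.3 and 4899 CPM in dKO. Saa2 stood at 0.111 and 0.0337 CPM in WT and 56.1 and 8.9 CPM in dKO (a gene with a near-identical copy, so its reads may be split). Ceruloplasmin (Cp) rose 3.66-fold (949 and 1066 against 4379.99 and 2995 CPM). The members that fell were both membrane-bound inhibitors of complement, Cd55 (2566 and 1706 against 170.3 and 607 CPM, 5.5-fold) and Cd59a (117 and 145 against 28.3 and 40.2 CPM, 3.83-fold). Complement counts came to 2 and 0 with WT replicate 1 left out, 5 and 0 with WT replicate 2 left out, 8 and 0 with dKO replicate 1 left out and 16 and 2 with dKO replicate 2 left out. These became 19 and 2 without both dKO replicate 2 libraries. Among the calls named here, those of Clu and Lcn2 survived each of the 4 leave-outs and the rest did not survive all of them. After their values were seen, Clu, Lcn2, Serping1, Cp, Cd55 and Cd59a were added to the genes named by rule.

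Of 33 coagulation, fibrinolysis and vascular tone genes 9 rose (27.3%) and 4 fell (12.1%). Among anticoagulants, Procr, the endothelial protein C receptor gene, stood at 675 and 779.8 CPM in WT and 128 and 216 CPM in dKO and fell 4.22-fold (log2 fold change -2.08 with an SE of 0.26, adjusted p = 0.00541). Thrombomodulin (Thbd) stood at 153 and 160.02 CPM in WT and 215 and 114 CPM in dKO. Tfpi stood at 555 and 518 CPM in WT and 440.4 and 510.5 CPM in dKO, and neither passed (adjusted p = 0.873 and 0.322). The thrombin receptor gene F2r rose 11-fold (39.9 and 48.1 against 628 and 343 CPM) and coagulation factor V (F5) 12.1-fold (17.1 and 10.6 against 159 and 175 CPM). The angiotensin-converting enzyme gene Ace stood at 14.4 and 26.4 CPM in WT and 368 and 459 CPM in dKO, and endothelin-converting Ece1 fell 1.8-fold (1449.9 and 1365 against 636 and 923 CPM). Of the enzymes that handle extracellular nucleotides, Entpd1 (CD39) fell 5.28-fold (410.1 and 356 against 81.2 and 64 CPM) and Nt5e (CD73) rose 16-fold (0.886 and 2.26 against 16 and 34.3 CPM). The adenosine receptor gene Adora2b rose 72.3-fold (0.332 and 0.742 against 53.6 and 24 CPM). Ptges, of prostaglandin E2 synthesis, rose 5.97-fold (23 and 24.6 against 107 and 177 CPM) and its receptor gene Ptger4 6.54-fold (5.91 and 3.84 against 35.5 and 28.3 CPM). In this list the changed members were 3 and 2 with WT replicate 1 left out, 3 and 1 with WT replicate 2 left out, 7 and 2 with dKO replicate 1 left out and 9 and 4 with dKO replicate 2 left out. Without either dKO replicate 2 library they were 12 and 8. Only Procr, F5, Ace, Adora2b, Ptges and Ptger4 among the genes named here kept their call in all 4 fits with a library left out. Outside the naming rule, Ece1, Entpd1, Ptges and Ptger4 were picked with their values known.

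Ion channel, mechanosensor and lipid receptor genes rose in 12 of 31 cases (38.7%) and fell in 3 (9.68%, near the share over all genes). The water channel gene Aqp1 stood at 229 and 308 CPM in WT and 6644 and 3034 CPM in dKO, and Aqp5, with 0 counts in WT, at 8.8 and 5.24 CPM in dKO. Sphingosine phosphate receptors went both ways. S1pr1, the main one of endothelium, fell 1.97-fold (544 and 565 against 248 and 314 CPM). S1pr3 rose 224-fold (0 and 0.135 against 21.7 and 8.57 CPM), a fold that rests on very few WT counts. The kinase gene Sphk1 rose 39.9-fold (0.517 and 0.978 against 37.8 and 21.9 CPM). The lysophosphatidic acid receptor gene Lpar1 fell 7.09-fold (102 and 71.3 against 12.8 and 11.7 CPM). In the YAP and TAZ list 4 of 20 rose and 5 fell, with the receptor kinase gene Axl at 106 and 139 CPM in WT and 799 and 802 CPM in dKO and Crim1 at 967 and 1153 CPM in WT and 364 and 442 CPM in dKO. Wwtr1, the gene of TAZ, stood at 473 and 457 CPM in WT and 191 and 271 CPM in dKO. Axl rose 6.54-fold, and Crim1 and Wwtr1 fell 2.63-fold and 2.01-fold. Among AP-1 and immediate early genes 7 of 30 rose (23.3%) and 4 fell (13.3%), against 13.4% and 9.66% of all genes. Jun fell 2.6-fold (98.1 and 97.8 against 26.2 and 49.1 CPM) and the MAP kinase phosphatase gene Dusp1 4.12-fold (96.7 and 88.3 against 13.4 and 31.5 CPM), while the receptor tyrosine kinase feedback genes Spry1 and Spred1 rose 3.7-fold (4.5 and 6.44 against 19 and 21.5 CPM) and 2.45-fold (53.4 and 52.3 against 136 and 123 CPM). Channel counts were 4 and 2 with WT replicate 1 left out, 4 and 2 with WT replicate 2 left out, 9 and 2 with dKO replicate 1 left out and 10 and 3 with dKO replicate 2 left out. They were 10 and 7 without either dKO replicate 2 library. YAP and TAZ counts were 2 and 2 with WT replicate 1 left out, 2 and 2 with WT replicate 2 left out, 2 and 2 with dKO replicate 1 left out and 3 and 4 with dKO replicate 2 left out. Leaving out both dKO replicate 2 libraries gave 5 and 8. AP-1 counts were 2 and 0 with WT replicate 1 left out, 1 and 0 with WT replicate 2 left out, 5 and 3 with dKO replicate 1 left out and 7 and 8 with dKO replicate 2 left out. With neither dKO replicate 2 library in the fit, 7 and 11 were called. In the fits that left out 1 of the 4 libraries, Aqp5, S1pr1, Sphk1, Lpar1, Axl, Crim1 and Spred1 passed each time, and the other calls named here did not pass each time. With values already known, S1pr1 and Lpar1 were included here.

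**Figure D5:**
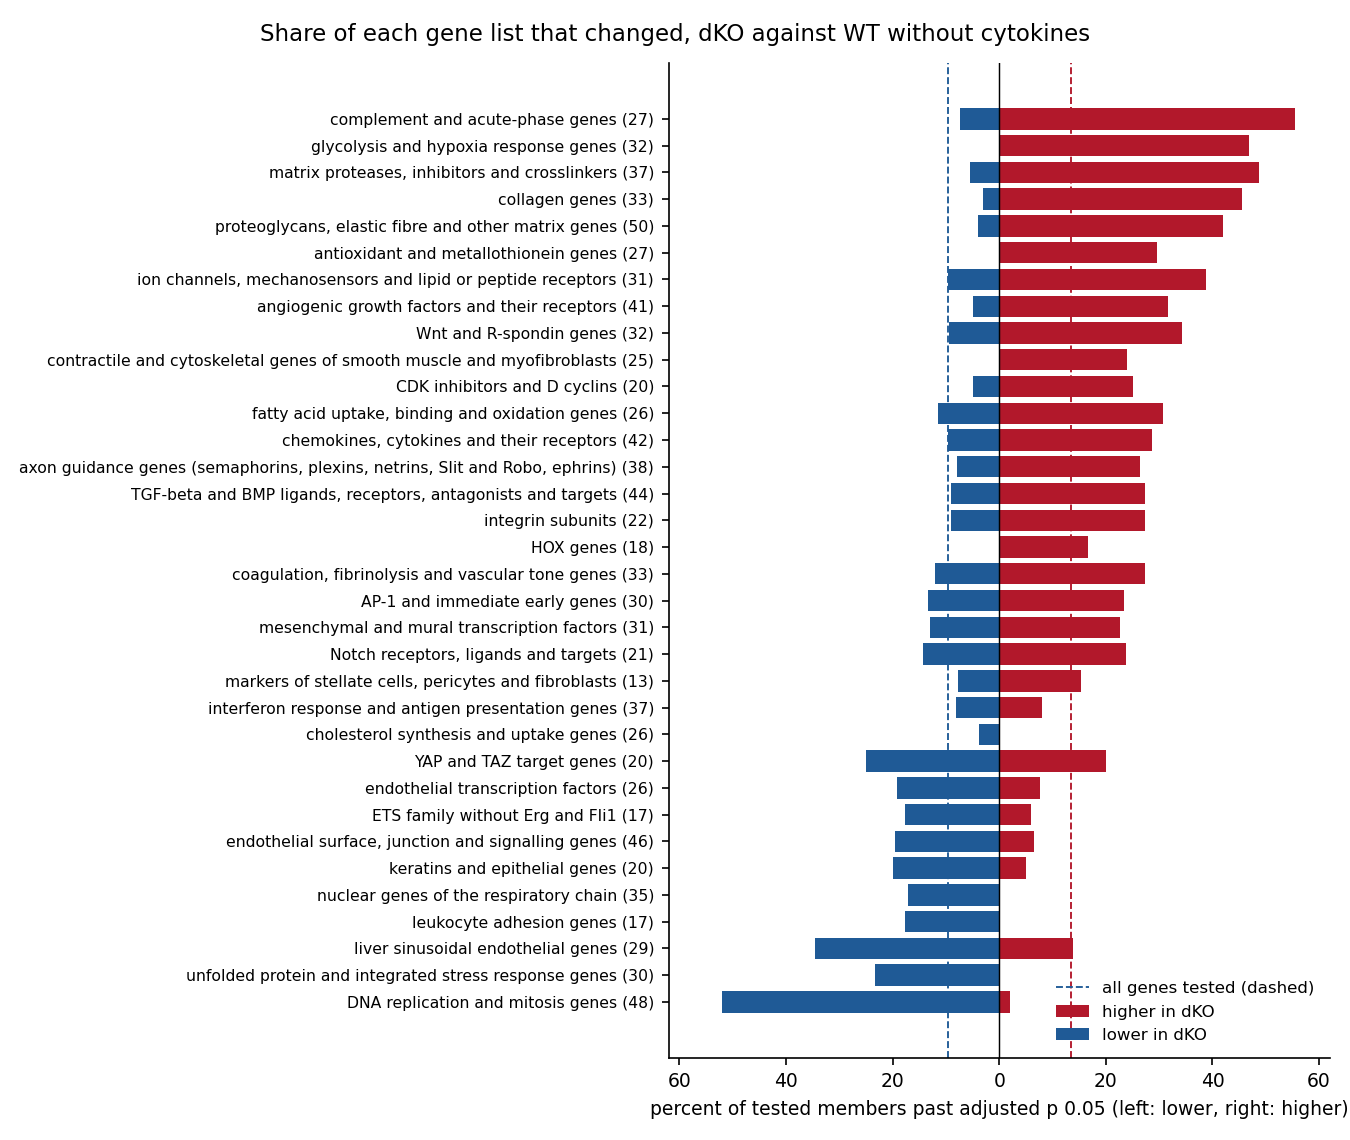
Percent of the tested members of each gene list that fell (blue, to the left) or rose (red, to the right), for lists with at least 10 tested members, whose number stands in parentheses. The dashed lines mark the shares among all genes tested, 9.66% lower and 13.4% higher. Replication and mitosis genes reach furthest to the left, and complement and acute-phase genes furthest to the right.

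The largest changes outside these lists, among genes with at least 10 CPM in a group and no overlap, included the matrix signalling gene Ccn5 (0.665 and 0.978 against 306 and 126 CPM), the Ras exchange factor gene Rasgrf2 (0.0369 and 0.337 against 64.8 and 49.5 CPM), the lipid droplet gene Pnpla3 (0.222 and 0.0337 against 66.6 and 18.3 CPM) and the asparaginase gene Aspg (0.0369 and 0.101 against 29.9 and 27.2 CPM). These 4 were near 0 in WT and rose. Gpm6b, a membrane proteolipid gene, had 520 counts in dKO and 2 in WT, which gives a ratio of 318 (95% counting interval 87.5 to 2631). Of the falls, the cadherin gene Cdh4 stood at 25.4 and 18.6 CPM in WT and 1.39 and 1.5 CPM in dKO and Kcnk5, a potassium channel gene, at 15.6 and 18 CPM in WT and 0.67 and 1.75 CPM in dKO. Elavl2, an RNA-binding protein gene of neurons, stood at 9.05 and 24.5 CPM in WT and 0.358 and 0.665 CPM in dKO. They fell 15.3-fold, 13.9-fold and 32.8-fold (Cdh4: log2 fold change -3.93 with an SE of 0.27, adjusted p = 0.00129). The calls of Ccn5, Rasgrf2, Aspg and Cdh4 held when each of the 4 libraries was left out in turn, and the other calls named here were lost without at least 1 of them.

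Whether the difference of resting cells changes with cytokines was asked by the interaction of genotype and treatment over all 8 libraries. In edgeR 0 of 15698 genes passed (0.0%), with 1683 at an unadjusted p under 0.05 and a smallest adjusted p of 0.1, and DESeq2 called 391 (2.49%), 160 with a higher (1.02%) and 231 with a lower (1.47%) dKO effect under cytokines. Without either dKO replicate 2 library edgeR called 193. Of the 3617 genes called in resting cells, 2688 (74.3%) were also called in the same direction with cytokines and 25 in the opposite direction. With cytokines 5343 of all genes tested were called (34%), and the 2688 are 50.3% of them. Pdgfra stood at 32.2 and 25.4 CPM in WT and 1174 and 616 CPM in dKO with cytokines, and Eng at 1041 and 940.5 CPM in WT and 320.3 and 417 CPM in dKO.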

How the data were processed

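The data were 1 table of raw counts per Ensembl gene, as deposited by the authors, for 8 libraries of cultured mouse liver endothelial cells, 2 in each of 4 groups. STAR 2.7.6a, FastQC 0.11.5 and the build GRCm38 are listed, without roles, per the submitters' processing notes. How reads were counted, and on which annotation release, is not given in the sources used here. An unstranded or a stranded kit was used, per the labels' protocols, so reads of genes overlapping on opposite strands may be shared. Where another gene reaching 1 CPM covers 10% or more of a gene's exon bases, that share is printed.

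In R 4.3.3, edgeR 4.0.16 was fitted to the deposited counts of all 8 libraries with TMM scaling, its filter on low counts by group and robust quasi-likelihood dispersions, with 1 coefficient for each group (4 residual degrees of freedom, common biological coefficient of variation 24.3%). The code was tested on simulated data. DESeq2 1.42.0, RLE scaling, no filter, the 4 libraries alone, a replicate block and leaving out each library were the alternatives. Median log2 ratios of a single dKO library to WT used CPM plus 0.1, and folds of a single library have no test. A fold against a group at 0 counts is a lower bound against 3 counts over that group, and intervals and floors cover counting error only. Symbols matched 52489 of 52636 identifiers.

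The comparison, the 37 gene lists (1177 genes, of which 1174 were in the table and 1022 tested) and the naming rule were chosen with earlier results of these data known. List counts are descriptions and no set test was run. Named by rule were Erg and Fli1, the 12 largest rises and 12 largest falls with at least 10 CPM in a group and no overlap between groups, the first 4 tested members of each list and its 5 largest changes past the threshold with at least 1 CPM, the neighbours of Erg and Fli1 within 1 Mb, and Xist and Ddx3y. Not all of these are described, and some results are not reported here. For other genes the text says that their values were already known.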

Additional observations from a re-analysis of the deposited data

Results flagged for a closer look

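Of 405 named genes, 15 had both dKO libraries on one side of both WT libraries without cytokines and on the other side with them, as did 575 of 15698 genes. These shares are nearly the same, so the 15 are listed for their values and not as a trait of the named genes. The difference was tested by the interaction of genotype and treatment, and none of the 15 passed in edgeR after adjustment (smallest adjusted p = 0.10). The unadjusted p of that test ran from 3.7e-05 for Pparg to 0.38 for Yap1, and some of the differences are small. Each difference is the log2 fold change of dKO over WT with cytokines minus that without. The cause was not tested. The dKO effect was lower with cytokines for Zbp1 (a nucleic acid sensor gene), -7.40 (from 4.45 to -2.94), Ankrd1 (a YAP target gene), -2.40 (from 1.42 to -0.98) and Sh3bgr, -1.65 (from 0.48 to -1.17). A lower effect also held for Pparg (a factor of fatty acid storage), -1.34 (from 0.37 to -0.97), Pfkfb3 (a regulator of glycolysis), -1.05 (from 0.45 to -0.60) and Hk2 (a hexokinase gene), -0.65 (from 0.40 to -0.25). Differences in the same direction were those of H2-K1 (an MHC class I gene), -0.54 (from 0.15 to -0.39) and Yap1 (the gene of YAP), -0.11 (from 0.01 to -0.10). The dKO effect was higher with cytokines for Tfpi (the tissue factor pathway inhibitor gene), 0.31 (from -0.17 to 0.14), Lrp5, 0.72 (from -0.50 to 0.22) and Slc3a2 (an amino acid transporter subunit gene), 1.05 (from -0.79 to 0.26). A higher effect also held for Txnrd1 (a thioredoxin reductase gene), 1.26 (from -0.46 to 0.80), Kcnj15 (a potassium channel gene beside Erg), 1.44 (from -1.06 to 0.38) and Itga1 (a collagen receptor subunit gene), 1.57 (from -0.52 to 1.05). Differences in the same direction were those of Hmox1 (the heme oxygenase gene), 1.57 (from -0.46 to 1.11).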

How the results depend on the processing

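Of all genes tested, 3617 passed with the 8-library edgeR fit, 4486 with DESeq2 (2415 higher and 2071 lower), 3649 with RLE scaling and 3256 without the filter on low counts. With only the 4 libraries compared 2266 passed, between 527 and 3675 with 1 of those libraries left out, and 5602 with neither dKO replicate 2 library in the fit, which was added after seeing the data. The interaction with cytokines had 0 calls in edgeR, also with RLE scaling, with the replicate block and with each library left out (0 to 0), 75 without the filter, 193 without both dKO replicate 2 libraries and 391 with DESeq2. With the replicate number as a block 4645 genes passed. The numbers were not taken to pair WT with dKO libraries, since the correlation of same-numbered deviations was 0.03 for the groups compared. Between libraries with and without cytokines the same correlation was 0.43 for WT and 0.69 for dKO, a hint from the data and not the design. Whether they share a culture is not given, and the 4 residual degrees of freedom take all 8 as independent.

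Of 405 named genes, 278 had a call. Of these calls, 65 were lost in the fit of 4 libraries, 52 without the filter, 1 with DESeq2 and 5 with the block, while 26 genes gained one with DESeq2 and 51 without both dKO replicate 2 libraries. Leaving out WT replicate 1 lost 184, WT replicate 2 170, dKO replicate 1 111 and dKO replicate 2 24, and 87 calls were kept in all of these fits. Without both dKO replicate 2 libraries 19 were lost. The direction of Cxcr4 turned without both dKO replicate 2 libraries, from a log2 fold change of 0.19 to -4.26. Of the 159 genes at least 4-fold lower in dKO replicate 1 than in replicate 2, 156 did not pass, which the rule that chose them favours. There were 2 libraries a group, with totals of 23009062 to 26944030 counts. The cause of the gap was not tested.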
